A study of Mus musculus with 2 samples.

Results

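Tcerg1l, Tmem163, Clec3a, Gm42196, Car10, Igfn1 and Gm4876 are 7 of the 31053 mouse genes in a single-nucleus RNA sequencing experiment, selected on the fold change of their UMI counts between nuclei labelled L5 PT and nuclei labelled L2/3 IT in it. L5 PT neurons, also called extratelencephalic neurons, send axons from cortical layer V to the brainstem and spinal cord, whereas L2/3 IT neurons project within the telencephalon. Both are glutamatergic, and they differ in the transcription factors that fix their projections during development, with Fezf2 and Bcl11b on the subcortical side and Cux2 in the upper layers. The levels of the 7 genes in these 2 classes are therefore given as a description, with no test, and the tests that are read here were made between the other neuron labels.

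Atf3-CreER::Sun1-sfGFP mice older than 7 weeks gave the nuclei, which were sorted for GFP out of the ipsilateral cortex 7 days after a closed-skull mild traumatic brain injury (mTBI). All animals received tamoxifen at 4 and 5 days after the injury, so that cells in which Atf3, a stress-induced transcription factor, was active marked their nuclear envelope. There were 2 libraries of 10X 3′ v3 chemistry, 1 from a pool of 4 males and 1 from a pool of 4 females, and both carried the same injury, alleles and treatment. No uninjured or unsorted nuclei were part of the comparison, so the values describe nuclei that passed the reporter sort. One label field of the library of females reads male, but Xist was at 1638 CPM in that library and at 3.33 CPM in the other. The authors labelled 8171 nuclei, 4003 male and 4168 female, and only 1 barcode was shared between the libraries. The median nucleus of the neuron labels used held 3508 UMIs (male) and 8342 UMIs (female).

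The labels examined were the 11 neuron subclasses with at least 27 nuclei, the nuclei labelled Unknown, 5 non-neuronal labels and the nuclei outside the neuron subset. A level is given in CPM, that is, UMIs of the gene relative to those of all genes, both summed over the nuclei of a label in a library. Levels are not scaled for gene length, and a 3′ assay on nuclei counts intronic reads, so they were compared for a gene across labels and not between genes. Values are the mean over the 2 libraries ± SD (n = 2), or the male value followed by the female value. The labels came from mapping the nuclei onto a reference, and the classical L5 PT markers were mixed in the L5 PT nuclei. Crym was at 59.4 and 59.6 CPM, above every other label, and Parm1 at 33.7 and 75.8 CPM, against 10.2 and 4.54 CPM in L2/3 IT CTX-1. Bcl11b was at 61.9 and 42.5 CPM, below Unknown (356 and 335 CPM), L6 CT (110 and 117 CPM) and Lamp5 (116 and 127 CPM). Fezf2 was at 3.06 and 5.78 CPM and Chrna6 had no UMI. Of the L2/3 IT markers, Cux2 was at 541 and 491 CPM in L2/3 IT CTX-1 and at 9.80 and 5.78 CPM in L5 PT.

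4 of the genes were higher in L5 PT. Tcerg1l, on chromosome 7 (GRCm38, 138208974 to 138397730, minus strand), encodes a relative of a transcription elongation regulator. Tmem163 (chromosome 1, 127486546 to 127679548, minus strand) encodes a zinc-binding membrane protein of synaptic vesicles. Clec3a (chromosome 8, 114418086 to 114425846, plus strand) encodes a C-type lectin best known from cartilage. Gm42196 (chromosome 3, 28176553 to 28212209, plus strand) is annotated as a lincRNA of no assigned function. 3 genes were higher in L2/3 IT. Car10 (chromosome 11, 93098028 to 93601749, plus strand) encodes a secreted carbonic anhydrase-related protein that has no catalytic activity and binds neurexins. Igfn1 (chromosome 1, 135953578 to 136006342, minus strand) encodes a protein with immunoglobulin-like and fibronectin type III domains, best known from skeletal muscle. Gm4876 (chromosome 6, 17065010 to 17171833, minus strand) is annotated as an antisense RNA and overlaps Tes on the other strand.

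The starts of the L5 PT-high genes are shown because these genes share a peak in L5 PT. RefSeq windows on GRCm38.p6, from 250 bases before to 50 bases after a start, were found for 5 of the 7 genes. In the 3 that belong to genes higher in L5 PT, capitals mark CCAAT boxes (CCAAT) and GC boxes (GGGCGG), found on either strand, and the sequences read 5′ to 3′ on the strand of the gene. The start used for Tmem163 lies inside the gene as GENCODE draws it. The windows lie at chr7:138397681-138397980 (minus strand), chr1:127677972-127678271 (minus strand) and chr3:28176262-28176561 (plus strand).
Tcerg1l: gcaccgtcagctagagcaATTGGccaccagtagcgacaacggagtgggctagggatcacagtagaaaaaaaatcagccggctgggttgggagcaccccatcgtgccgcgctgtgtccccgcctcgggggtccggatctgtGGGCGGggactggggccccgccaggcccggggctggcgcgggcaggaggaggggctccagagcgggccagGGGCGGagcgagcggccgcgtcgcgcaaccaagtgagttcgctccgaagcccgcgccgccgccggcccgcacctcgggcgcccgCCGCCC
Tmem163: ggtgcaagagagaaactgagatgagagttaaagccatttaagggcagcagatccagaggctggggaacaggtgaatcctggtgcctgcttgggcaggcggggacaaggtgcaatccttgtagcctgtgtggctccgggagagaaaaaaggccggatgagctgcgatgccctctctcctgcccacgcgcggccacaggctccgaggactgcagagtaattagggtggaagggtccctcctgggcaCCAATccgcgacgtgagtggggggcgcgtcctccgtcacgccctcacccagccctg
Gm42196: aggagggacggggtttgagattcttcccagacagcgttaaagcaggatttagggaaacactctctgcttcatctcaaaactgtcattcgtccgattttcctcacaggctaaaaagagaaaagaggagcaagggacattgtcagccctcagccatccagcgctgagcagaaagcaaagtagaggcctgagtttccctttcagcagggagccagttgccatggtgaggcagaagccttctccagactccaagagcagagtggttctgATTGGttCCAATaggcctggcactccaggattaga

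A CCAAT box was present in each of these 3 windows and in 37.4% of all 32851 windows of the table. The GC box was present in the Tcerg1l window, in both windows of Car10 and in 35.7% of all windows. The Igfn1 window held none of the 5 motifs searched. No window of the 5 genes that had one held a cAMP response element (TGACGTCA), an AP-1 site (TGACTCA) or a TATA box (TATAAA). These were present in 1.79%, 5.20% and 13.6% of all windows. Clec3a and Gm4876 had no window to search. No motif overlapped another in these windows, and a match describes the letters only.

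Among the labels, the genes higher in L5 PT split into those that almost no other neuron shared and those that a further class shared. Gm42196 was at 164 and 155 CPM in L5 PT. Its next neuron label, L5 IT, was at 12.9 and 4.78 CPM, and no other label of any kind exceeded 18.5 CPM in either library. In Vip and Lamp5 nuclei it had no UMI, which allows up to 24.3 and 16.7 CPM in Vip and up to 49.9 and 25.4 CPM in Lamp5, taking 3 counts as the limit in each library. Clec3a was the sparsest of the genes, with 59 and 87 UMIs in L5 PT, or 36.1 and 25.2 CPM. It had no UMI in L4/5 IT, L5 IT, L6 IT, L6 CT, Sst, Vip and Lamp5 nuclei of either library. L2/3 IT CTX-2 was at 10.9 CPM in the male library and had no Clec3a UMI in the female library. From the second rank down, each neuron label overlapped with the next in order for Clec3a. The same held for Gm42196, except that L4/5 IT, at 5.80 and 1.41 CPM, lay above Unknown, at 1.06 and 0 CPM. Gm42196 in L5 IT also lay above Unknown.

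Tmem163 reached 649 and 643 CPM in L5 PT, and its libraries did not overlap with those of any other label. Oligodendrocytes, which form myelin, came next at 74.0 and 183 CPM and did not overlap with the highest of the other neuron labels, L6 IT at 65.3 and 51.2 CPM. L4/5 IT nuclei were at 75.5 and 33.8 CPM, L2/3 IT CTX-2 at 43.6 and 43.0 CPM and L2/3 IT CTX-1 at 39.1 and 36.3 CPM. The lowest levels were found in Pvalb nuclei, at 7.88 and 5.16 CPM, and in Sst nuclei, at 5.02 and 4.87 CPM. Tmem163 overlaps the end of Mgat5 on the other strand, and Mgat5 was at 81.5 and 65.4 CPM in L5 PT and at 662 and 713 CPM in microglia.

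Tcerg1l was shared with an inhibitory class. It was at 339 and 368 CPM in L5 PT and at 146 and 172 CPM in Vip interneurons, which mainly inhibit other interneurons. These labels did not overlap with each other, and the Vip libraries did not overlap with any examined label below them. Sncg interneurons had too few nuclei to be among the labels examined. They held Tcerg1l at 72.0 and 180 CPM, from 4 and 7 nuclei, and overlapped with Vip. Whether Tcerg1l differs between Vip and Sncg was not tested. Lamp5 nuclei had 0 UMIs in the male library (15 nuclei) and 8 UMIs in 4 of 12 nuclei, or 67.8 CPM, in the female library. Sst nuclei were at 17.6 and 25.0 CPM, L2/3 IT CTX-1 at 12.03 and 12.25 CPM and L6 CT at 0 UMIs in both libraries.

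**Figure D1:**
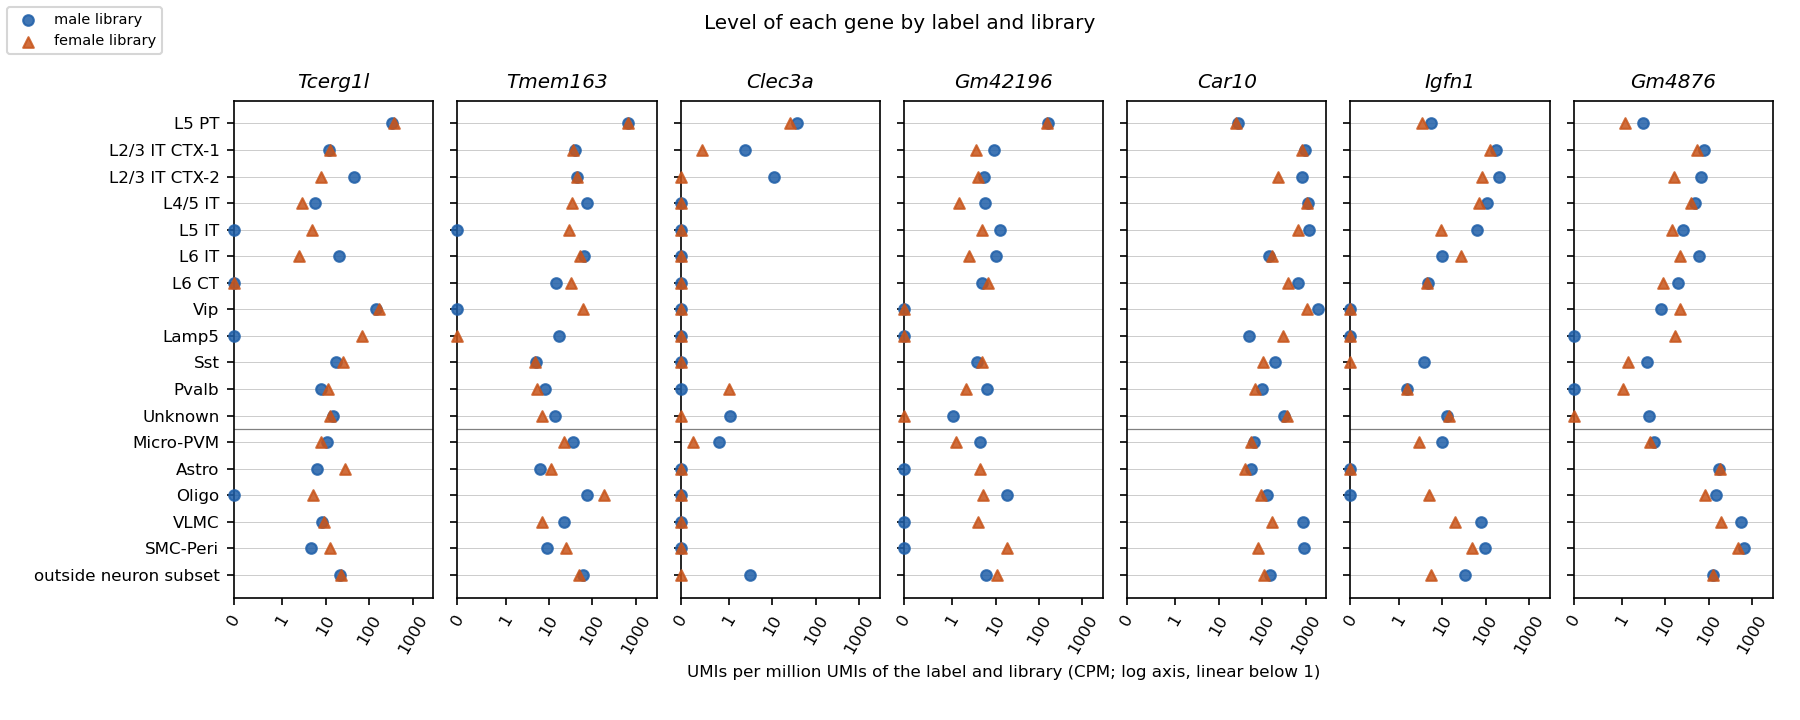
Level of each gene (columns) in each label (rows), in CPM on a log axis that is linear below 1. Blue circles are the male and orange triangles the female library, and the grey line divides neuronal from other labels. The 4 genes on the left peaked in L5 PT, Tcerg1l again in Vip, and Car10 was lowest in L5 PT.

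The genes higher in L2/3 IT were spread more widely. Car10 was at 966 and 817 CPM in L2/3 IT CTX-1 and at 818 and 226 CPM in L2/3 IT CTX-2, but Vip nuclei were higher still at 1939 and 1056 CPM. L4/5 IT nuclei were at 1151 and 1074 CPM and L5 IT nuclei at 1197 and 674 CPM. The libraries of these first 4 neuron labels, Vip, L4/5 IT, L5 IT and L2/3 IT CTX-1, overlapped from each rank to the next, but both Vip and L4/5 IT lay above L2/3 IT CTX-1. L6 CT at 674 and 388 CPM did not overlap with L2/3 IT CTX-1. Unknown nuclei were at 318 and 371 CPM, L6 IT at 141 and 166 CPM, Sst at 198 and 102 CPM and Pvalb at 101 and 69.2 CPM. L5 PT was the lowest of all labels, at 28.2 and 25.2 CPM. Those values lay under the 65.8 and 54.5 CPM of microglia and under the 341 and 235 CPM of barcodes that were not called as nuclei. In Lamp5 the female level of 305 CPM came mostly from 1 nucleus with 27 of the 36 UMIs.

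Igfn1 followed the upper layers. It was at 176 and 126 CPM in L2/3 IT CTX-1, at 207 and 82.0 CPM in L2/3 IT CTX-2 and at 110 and 69.0 CPM in L4/5 IT, and L2/3 IT CTX-2 overlapped with both others, while L2/3 IT CTX-1 lay above L4/5 IT. L4/5 IT was not uniform. Its 92 nuclei in deposited clusters led by an L2/3 IT label held Igfn1 at 211 and 115 CPM. The 46 in the cluster led by L6 CT held 51.2 and 39.0 CPM, and the 33 in the cluster led by L6 IT had no UMI. L5 IT was at 64.3 and 9.56 CPM, from 15 and 20 nuclei. L6 IT was at 10.0 and 26.8 CPM, Unknown at 12.8 and 14.5 CPM and L5 PT at 5.51 and 3.47 CPM. Vip and Lamp5 nuclei had no Igfn1 UMI in either library.

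Gm4876 was at 78.8 and 54.4 CPM in L2/3 IT CTX-1, the highest neuron label, and at 48.4 and 39.4 CPM in L4/5 IT, which did not overlap with it. L6 IT was at 60.2 and 21.9 CPM and L2/3 IT CTX-2 at 65.5 and 15.6 CPM. L5 PT was at 3.06 and 1.16 CPM, and Pvalb at 0 and 1.03 CPM was lower. Higher levels than in any neuron were found outside the neurons, at 167 and 183 CPM in astrocytes and at 148 and 81.3 CPM in oligodendrocytes. Tes, on the other strand of the same locus, was at 40.3 and 36.3 CPM in L2/3 IT CTX-1 and at 30.6 and 24 CPM in L5 PT. In astrocytes Tes was at 0 and 2.18 CPM, where Gm4876 was above its level in neurons.

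Gm4876, Car10 and Igfn1 were also counted in nuclei labelled SMC-Peri and VLMC, the mural and meningeal cells of vessels. In SMC-Peri nuclei Gm4876 was at 639 and 470 CPM, and in VLMC nuclei at 555 and 195 CPM. Split by the clusters the authors deposited, these levels came from clusters 15 and 21 and not from cluster 11. In cluster 15, with 133 nuclei, Car10 was at 1373 and 850 CPM, Igfn1 at 124 and 149 CPM and Gm4876 at 825 and 491 CPM. In cluster 21, with 72 nuclei, Gm4876 was at 1067 and 724 CPM, whereas its SMC-Peri nuclei held Car10 at 41.7 and 31.5 CPM and Igfn1 at 0 and 10.5 CPM. VLMC nuclei of cluster 11 held Gm4876 at 6.39 and 7.83 CPM.

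The 3 VLMC markers summed to 997 and 949 CPM in cluster 11, but to 21.3 and 22.1 CPM in cluster 15 and to 0 and 3.57 CPM in cluster 21. The 5 astrocyte markers were above them in cluster 11, at 4241 and 2608 CPM, and summed to 25.6 and 60.7 CPM in cluster 15 and to 792 and 559.8 CPM in cluster 21. In cluster 15 the 5 excitatory markers summed to 23.5 and 33.1 CPM and the 6 inhibitory markers to 10.7 and 5.52 CPM. The excitatory markers summed to 34.9 and 43.8 CPM in all nuclei labelled VLMC and to 260 and 188 CPM in L5 PT. The 8 L2/3 IT markers summed to 746 and 806 CPM in cluster 15 and to 517 and 592 CPM in cluster 21, near the 702 and 509 CPM of cluster 11. No mural markers were listed, and clusters 15 and 21 are named by number only. The male library gave 109 of the 133 nuclei of cluster 15.

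**Figure D2:**
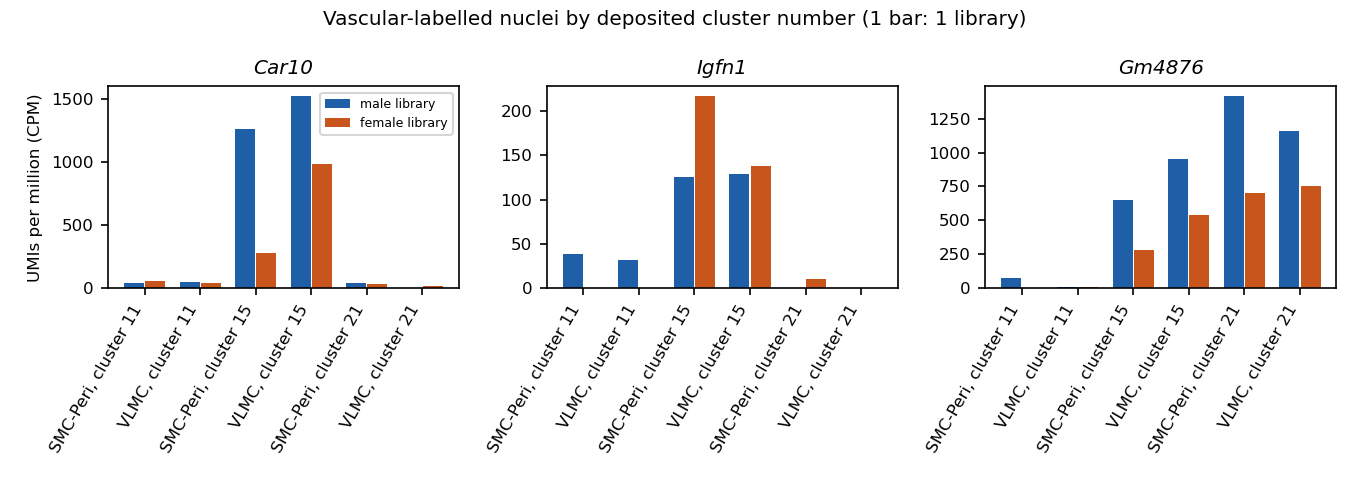
Level of 3 genes, in CPM on linear axes that differ between panels, in nuclei labelled SMC-Peri or VLMC, split by deposited cluster. Each bar is 1 library. Car10 and Igfn1 were concentrated in cluster 15, Gm4876 in clusters 15 and 21, and cluster 11 held at most 76.0 CPM of any of them.

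Levels of whole labels can hide how many nuclei carry a gene. Tmem163 was detected in 76.7% of male L5 PT nuclei (exact 95% interval 71.9 to 81.0%) and in 87.6% of female ones (83.2 to 91.2%). With every nucleus thinned to 2000 UMIs, which left out 69 male and 7 female nuclei, the shares were 65.4% and 60.8%. In microglia 4.20% and 6.12% of nuclei had a Tmem163 UMI, at median depths of 1299 and 3013 UMIs. Microglia were not uniform, since those of cluster 9 held Tmem163 at 156 and 83.4 CPM and those of the other clusters led by microglia at no more than 43.4 CPM. Tcerg1l was detected in 52.0% and 64.8% of L5 PT nuclei, or 41.3% and 36.0% after thinning, against 1.54% and 2.61% of microglia. Gm42196 was detected in 30.1% and 34.8% of L5 PT nuclei, or 19.8% and 16.3% after thinning. Clec3a was detected in 13.6% and 19.7%, or 9.19% and 4.59% after thinning. The higher shares of the female library were thus no longer higher at equal depth for any of the 4 genes.

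Within L5 PT the UMIs of Gm42196 were spread less evenly than those of Tmem163 and Tcerg1l. The tenth of nuclei with the most Gm42196 UMIs held 68.7% (male) and 72.3% (female) of them, and 1 female nucleus held 36. The same share was 40.7% and 33.5% for Tmem163 and 46.8% and 47.6% for Tcerg1l. Of 352 male L5 PT nuclei, 39 had none of the 4 genes, 100 had 1, 138 had 2, 69 had 3 and 6 had all 4. Of 290 female nuclei, 18 had none and 23 had all 4. In L2/3 IT CTX-1, 291 of 360 male and 196 of 252 female nuclei had none of them, and no nucleus had 3. At 2000 UMIs per nucleus, Gm42196 was detected about as often with Tcerg1l as without it. Gm42196 was found in 19.7% of male L5 PT nuclei with Tcerg1l and in 19.9% of those without, with intervals of 12.9 to 28.0% and 14.1 to 26.8%. In the female library these shares were 17.6% and 15.5%. Tmem163 was found in 69.6% of female nuclei with Tcerg1l and in 55.8% of those without, but in 62.4% and 67.5% of male ones, so the libraries went opposite ways. Tcerg1l was found in 61.5% of the 13 female nuclei with Clec3a and in 34.8% of those without. The intervals, 31.6 to 86.1% and 29.1 to 40.8%, overlapped. In the male library these shares were 46.2% and 40.9%.

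**Figure D3:**
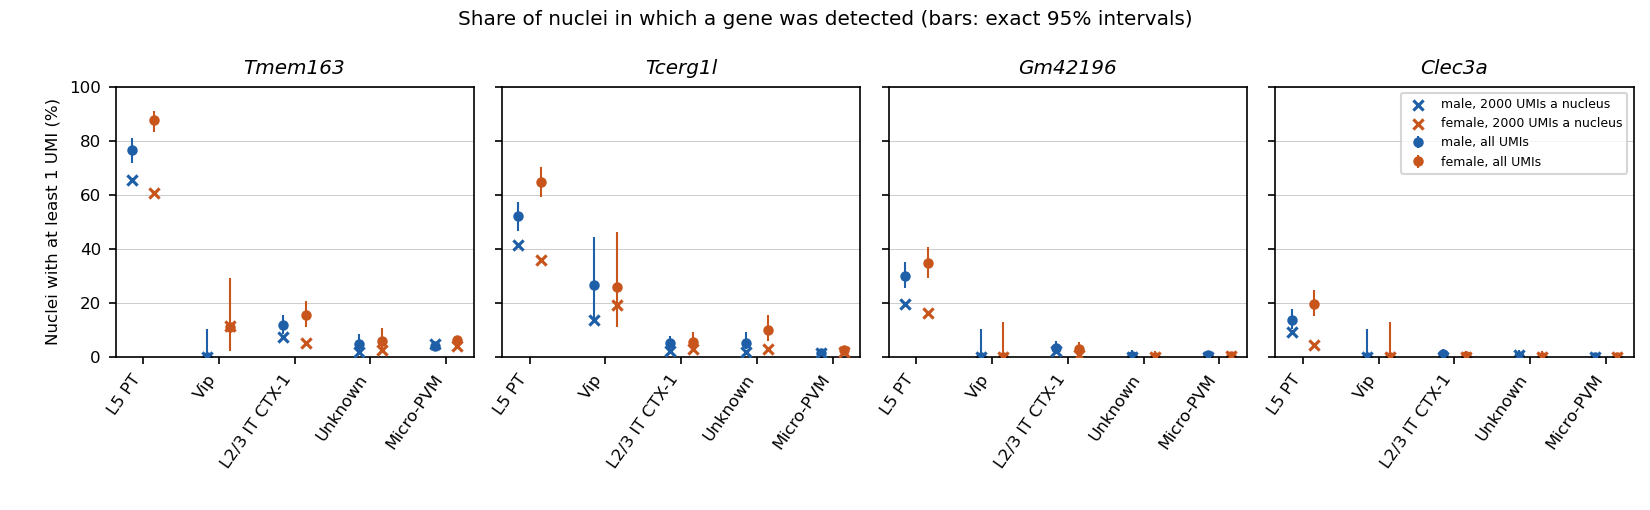
Percent of nuclei with at least 1 UMI of the 4 genes higher in L5 PT, in 5 labels. Points with bars give all UMIs with exact 95% intervals, crosses give the share after thinning to 2000 UMIs, blue is the male and orange the female library. Vip held Tcerg1l, in 26.5% and 25.9% of nuclei, and no Gm42196 or Clec3a.

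In Vip nuclei Tcerg1l was detected in 26.5% of male (12.9 to 44.4%) and 25.9% of female nuclei (11.1 to 46.3%), and in 13.8% and 19.2% after thinning. No Vip nucleus held more than 1 of the 4 genes. Tmem163 had no UMI in male Vip nuclei and 11 UMIs in 3 female ones, 9 of them in 1 nucleus. Car10 was detected in 85.3% of male and 88.9% of female Vip nuclei, in 68.9% and 77.0% of L2/3 IT CTX-1 nuclei and in 11.9% and 17.2% of L5 PT nuclei. The shares in microglia were 8.76% and 16.4%, at median depths of 1299 and 3013 UMIs against 3790 and 10700 UMIs in L5 PT. Whether the Car10 of L5 PT was background was not tested. Igfn1 was detected in 26.9% and 22.2% and Gm4876 in 22.2% and 28.6% of L2/3 IT CTX-1 nuclei. The intervals cover counting error only and not the spread between animals.

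Free RNA carried the genes too. Barcodes with at most 10 UMIs that were not called as nuclei held Tmem163 at 107 and 157 CPM, Tcerg1l at 63.0 and 51.1 CPM, Gm42196 at 39.1 and 26.1 CPM, Clec3a at 8.69 and 3.41 CPM, Igfn1 at 84.8 and 31.8 CPM and Gm4876 at 34.8 and 23.8 CPM. Neuron labels below those levels still differed, with Tmem163 at 75.5 and 33.8 CPM in L4/5 IT and at 5.02 and 4.87 CPM in Sst. How much of the level of each label came from free RNA was not tested. The 8 microglia markers summed to between 296 and 1726 CPM in the neuron labels and to 5206 and 5349 CPM in microglia, and their part in the levels of the 7 genes was not tested beyond the exclusion of nuclei given below.

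The next comparisons asked which of the other neurons shared the genes. They used UMIs summed per label and library, 24 sums of 12 labels, and the quasi-likelihood test of edgeR, with p-values adjusted over 8628 genes by the Benjamini-Hochberg method. All 7 genes passed the filter on low counts, but Gm42196 and Clec3a did so only through the classes that chose them. The side of a comparison is the mean of its labels on the log scale. In the comparison of L5 PT with L2/3 IT, 12.2% of all genes were called. The fitted log2 difference of the 7 genes ran from 3.56 for Clec3a to 4.93 for Gm42196 on the L5 PT side and from -4.98 for Igfn1 to -4.59 for Car10 on the other. Genes outside the 7 reached 5.23 and -5.41. Nothing is read from these values, since they chose the genes.

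5 of the 7 genes differed between the inhibitory labels (Pvalb, Sst, Vip, Lamp5) and the excitatory labels that had not chosen them (L4/5 IT, L5 IT, L6 IT, L6 CT), where 18.2% of all genes were called. Tcerg1l was higher on the inhibitory side, with a mean over labels of 42.9 and 69.1 CPM against 6.47 and 2.51 CPM (adjusted p = 7.35e-06). Its log2 fold change was 4.12 ± 0.59 (SE), which depends on the empty L6 CT sums. Without L6 CT it was 2.86 (adjusted p = 0.000141), and in the male library alone it was 2.17 against 4.30 in the female. The inhibitory side lay below the 63.0 CPM of uncalled barcodes in the male library and above their 51.1 CPM in the female.

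Tmem163, Car10, Igfn1 and Gm4876 were lower in the inhibitory labels. Tmem163 was at 7.39 and 17.8 CPM against 38.8 and 36.3 CPM, a log2 fold change of -1.94 ± 0.47 (adjusted p = 0.00317), or -1.60 in males and -2.65 in females alone. Gm4876 was at 2.97 and 10.4 CPM against 38.4 and 21.2 CPM, with -2.39 ± 0.53 (adjusted p = 0.00161), and its male library alone gave -4.32 against -1.67 in the female. Its excitatory side was near the 34.8 and 23.8 CPM of uncalled barcodes. Both sides of Tmem163 lay below the 107 and 157 CPM of those barcodes. Igfn1 was at 1.34 and 0.387 CPM against 47.4 and 27.5 CPM, with -5.38 ± 1.07 (adjusted p = 0.000569), or -4.33 in males and -4.61 in females alone. Without Vip and Lamp5, which had no Igfn1 UMI, it was -3.65 (adjusted p = 0.000278). Both sides of Igfn1 lay below the 84.8 and 31.8 CPM of uncalled barcodes. Car10 was at 572 and 383 CPM against 791 and 576 CPM, with -1.06 ± 0.23 (adjusted p = 0.00100), although Vip had the highest mean of all labels. After the removal of neuronal nuclei with 3 or more microglial UMIs, which left 1303 of 2956 nuclei, Car10 alone of the 5 was still called, with -1.69 (adjusted p = 0.000619). The calls of all genes fell from 1573 to 503 in that fit. Tcerg1l was then at 3.37 (adjusted p = 0.0752), Tmem163 at -2.07 and Igfn1 at -3.36 were not called (adjusted p = 0.9998 each), and Gm4876 did not enter that fit.

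Among the inhibitory labels, 2 of the 7 genes differed between Pvalb and Sst on one side and Vip and Lamp5 on the other, where 11.2% of all genes were called. Car10 was lower in Pvalb and Sst, at 150 and 85.7 CPM against 995 and 680 CPM, with a log2 fold change of -2.19 ± 0.35 (adjusted p = 6.48e-05). In the male library alone it was -0.95 and in the female -2.62. Tcerg1l was also lower in Pvalb and Sst, at 12.7 and 18.2 CPM against 73.0 and 120 CPM, with -2.33 ± 0.49 (adjusted p = 0.00178). In the male library alone, where the Lamp5 sum was empty, Tcerg1l went the other way on the log scale, at 0.65, against -2.52 in the female. Against Vip alone the values were -3.30 for Tcerg1l (adjusted p = 1.47e-06) and -3.65 for Car10 (adjusted p = 2.11e-08). Neither was called without the nuclei that held microglial UMIs, at -1.74 (adjusted p = 0.505) and -1.26 (adjusted p = 0.4299). Gm4876 was not called (adjusted p = 0.0801), but was with the library as a block (-3.03, adjusted p = 0.0483) and with DESeq2 (adjusted p = 0.00782). Between Pvalb and Sst, where 7.52% of all genes were called, edgeR called 0 of the 7 genes, DESeq2 called 0, and Tcerg1l alone had an unadjusted p below 0.05 (0.0282).

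Among the excitatory labels, Car10 and Igfn1 were higher in L4/5 IT than in L6 IT, where 9.12% of all genes were called. Car10 was 7.27-fold higher in mean CPM, with a log2 fold change of 2.96 ± 0.45 (adjusted p = 7.93e-05), and Igfn1 was 4.87-fold higher, with 2.17 ± 0.53 (adjusted p = 0.00924). For Igfn1 the male library alone gave 3.58 and the female 1.43. Both were still called without nuclei with microglial UMIs. L6 IT was not a uniform label, since its 188 nuclei also lay in clusters led by L5 PT, Pvalb, Sst and both L2/3 IT labels, and 40 were in the cluster that it led, where they held Car10 at 34.4 and 144 CPM. L4/5 IT nuclei in that L6 IT-led cluster held Car10 at 294 and 213 CPM, against 1206 and 1084 CPM in those of an L2/3 IT-led cluster. The former had no Igfn1 UMI, and the latter held Igfn1 at 211 and 115 CPM. Nuclei that cluster with the L2/3 IT labels thus enter each comparison that uses L4/5 IT. Igfn1 was also the only one of the 7 called between L6 CT and the IT labels L4/5 IT, L5 IT and L6 IT, where 5.74% of all genes were called. It was at 4.78 and 4.49 CPM in L6 CT against 61.6 and 35.1 CPM, with -2.94 ± 0.82 (adjusted p = 0.0322). Without nuclei with microglial UMIs it was -6.09 and not called (adjusted p = 0.1696). The IT side lay below the 84.8 CPM of uncalled barcodes in the male library and near their 31.8 CPM in the female.

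The Unknown nuclei, 395 in all, carried none of the 4 L5 PT-high genes above 15 CPM as a whole. The 62 of them in cluster 23 held Tcerg1l at 48.0 and 37.2 CPM, from 2 and 3 UMIs. Against the mean of the 8 inhibitory and excitatory labels, a comparison in which 35.1% of all genes were called, Gm4876 and Igfn1 were called. Gm4876 was lower, at 4.25 and 0 CPM against 20.7 and 15.8 CPM, with -2.43 ± 0.77 (adjusted p = 0.0145). The male library alone gave -0.58 and the female -4.41. Igfn1 was higher by 2.22 ± 0.76 on the log scale (adjusted p = 0.0240), although its mean of 13.6 CPM lay below the 19.1 CPM of the other labels. Without Vip and Lamp5, which had no UMI, it was 0.74 and was not called (adjusted p = 0.219). The share of 2 of 7 called lay under that of all genes. Without nuclei with microglial UMIs, Igfn1 was at 1.79 and not called (adjusted p = 0.174) and Gm4876 did not enter the fit. For both genes, both sides lay below the level in uncalled barcodes.

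Both L2/3 IT labels helped to choose the genes, so nothing is read from the tests of their difference. Between L2/3 IT CTX-1 and CTX-2, where 0.348% of all genes were called, edgeR and DESeq2 called 0 of the 7, and in edgeR 1 of them, Car10, had an unadjusted p below 0.05. Its log2 fold change was 0.87, with a 95% interval of -0.03 to 1.76, and without the filter on low counts it was called at 0.98. The interval took 12 degrees of freedom, whereas the edgeR test adds prior degrees of freedom, so the interval can include 0.

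**Figure D4:**
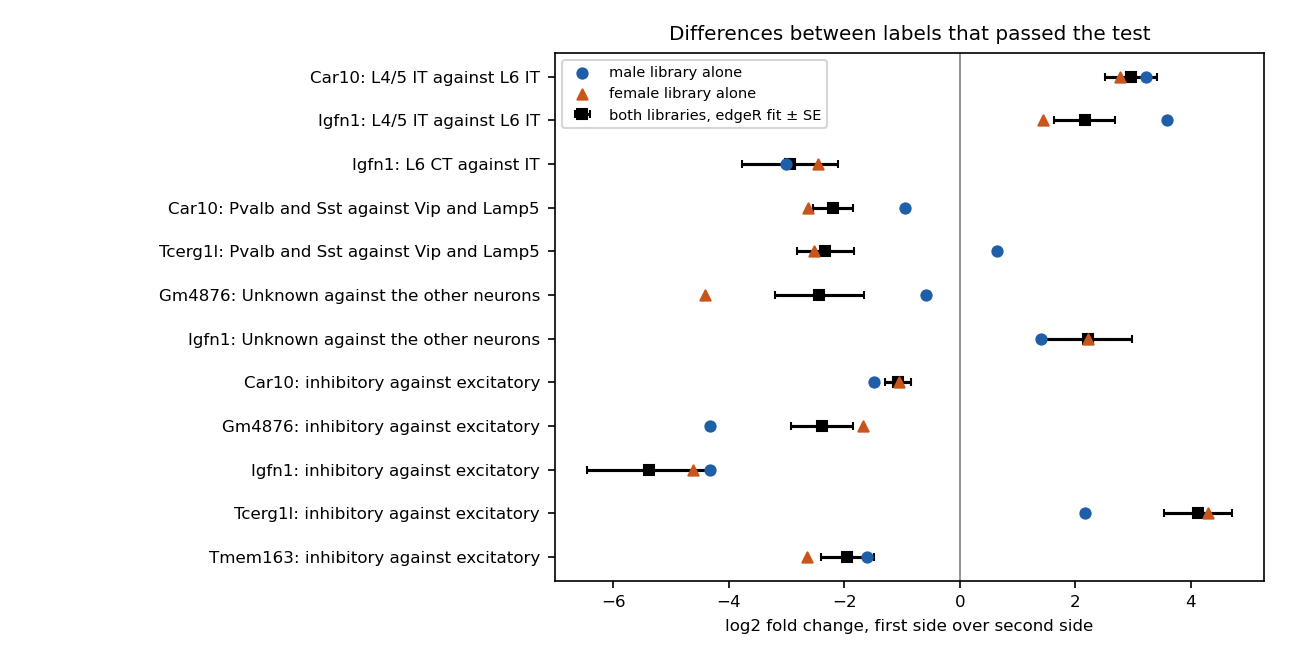
log2 fold change of each gene and comparison that passed the test, first side over second side. Black squares with bars are the edgeR fit of both libraries ± SE, blue circles the male and orange triangles the female library alone. The male library crossed 0 for Tcerg1l between Pvalb with Sst and Vip with Lamp5.

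Likeness between genes was described over the log2 CPM of 12 neuronal labels that share library and depth. These include the labels that chose the genes, so a shared level in L5 PT or L2/3 IT enters each value, and Clec3a and Gm42196 had few UMIs elsewhere. Pearson correlations between the 4 genes higher in L5 PT ran from 0.26 for Tcerg1l and Tmem163 to 0.90 for Clec3a and Gm42196, both in the female library. Those between Car10, Igfn1 and Gm4876 ran from 0.36 to 0.81. Among all genes tested, the one most like Igfn1 was Stard8, an L2/3 marker (0.88 in male and 0.89 in female nuclei), followed by Coch at 0.89 and 0.84. Gm42196 was most like Pla2g5, a secreted phospholipase (0.89 and 0.79), and Pls3, an actin-bundling plastin (0.86 and 0.78). Car10 was most like the potassium channel genes Kcnh1 (0.80 and 0.82) and Kcnt2 (0.83 and 0.80). Gm4876 was most like Ovol2 (0.82 and 0.84) and Enpp2 (0.78 and 0.91). For Tcerg1l the nearest were Terf2 (0.74 and 0.83) and Prkar2a (0.76 and 0.71), for Tmem163 Hnrnpu (0.80 and 0.77) and Rnps1 (0.81 and 0.77), and for Clec3a Fkbp1a (0.82 and 0.74) and Gm42196.

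Of 9 listed paralogs and partners of the 7 genes, 5 passed the filter, with a median log2 difference of 0.04 between the inhibitory and excitatory labels beside -0.05 over all genes. Nrxn3 and Nrxn2, which encode neurexins, were higher by 1.47 (adjusted p = 1.28e-10) and 0.72 (adjusted p = 0.000382) in the inhibitory labels. Of the 5 L5 PT markers tested, Parm1 was higher by 1.54 (adjusted p = 0.00873) and Crym lower by -1.26 (adjusted p = 0.0182) in the inhibitory labels. Of the 6 L2/3 IT markers tested, Cux2 and Rasgrf2 were higher there by 2.67 (adjusted p = 6.72e-07) and 2.65 (adjusted p = 8.30e-12), whereas Stard8 was lower by -2.98 (adjusted p = 0.00816).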

How the data were processed

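Nuclei of 2 libraries were analysed. The authors deposited raw counts of UMIs, made with CellRanger against a pre-mRNA reference of GRCm38, without normalization. The submitters' processing notes name Cell Ranger 3.1.0, Seurat, DESeq2 and the build mm10. The authors also deposited a table of nuclei with clusters and labels mapped from a reference in Seurat, which was used as deposited, with the percent of mitochondrial UMIs that the authors computed per nucleus. A deposited matrix corrected for depth was not used here. Rows of the reporter plasmid stayed out of the totals.

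UMIs of called barcodes were summed per label and library in Python 3.11.15 (numpy 2.4.6, pandas 2.3.3, scipy 1.17.1). The library totals over labelled nuclei were 10823136 and 23127444 UMIs. Sums of 12 labels were fitted with edgeR 4.0.16 under R 4.3.3 (limma 3.58.1), using TMM factors, filterByExpr by label, glmQLFit and glmQLFTest, Benjamini-Hochberg adjustment over all 8628 genes and a threshold of 0.05. The spread was estimated from the differences between the 2 libraries within each of the 12 labels, with 12 residual degrees of freedom. The labels of a pool were thereby treated as independent, so p-values do not measure the spread between animals or pools. Fold changes of 1 library are log2 ratios of CPM with 0.5 added and have no test. Similar genes were ranked by the lower of the male and female correlations of log2 CPM (prior count 2). Shares have exact Clopper-Pearson 95% intervals, and 3 counts were taken as the limit where a sum was 0. The fit was tested on simulated data. No doublet caller was run.

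All labels of a library came from 1 pool of animals, so libraries pair the labels. The differences between the libraries correlated between labels with a median of 0.144 (0.0210 to 0.479, 66 pairs). Alternatives were DESeq2 1.42.0, no filter, the library as a replicate block, limits of 6000 genes and 5% mitochondrial UMIs, removal of nuclei with 3 or more microglial UMIs, thinning to 2000 UMIs, subtraction of 10% of the level in uncalled barcodes, and each library left out. Contrasts without labels that had no UMI of a gene, and 1 without Lamp5, the smallest label, were added after the sums were seen.

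The genes named are the 7 members, the 2 genes most like each of them, and at most 4 genes of each of 3 lists, with Tes and Mgat5, which overlap members, chosen after their values were seen. Some genes of the lists are not reported here. The members and the lists were chosen with earlier results of these data known. Positions are from GENCODE vM21 and promoter windows from RefSeq (figures were drawn with matplotlib 3.10.9).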

Additional observations from a re-analysis of the deposited data

Results flagged for a closer look

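Tcerg1l was called lower in Pvalb and Sst than in Vip and Lamp5, but the libraries alone pointed in opposite directions, with a log2 fold change of 0.65 for males and -2.52 for females. The male Lamp5 sum held no Tcerg1l UMI in 15 nuclei, and the difference between the libraries was not tested.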

How the results depend on the processing

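No called fold change lost its call with DESeq2, the limits on nuclei, no filter or the replicate block. The block and DESeq2 each called Gm4876 between Pvalb with Sst and Vip with Lamp5 (adjusted p = 0.0483 and 0.00782, main 0.0801), and the block changed no other call. Without nuclei with microglial UMIs the members called fell from 5 to 1 between inhibitory and excitatory labels, from 1 to 0 between L6 CT and IT, and from 2 to 0 both between Pvalb with Sst and Vip with Lamp5 and for Unknown nuclei, and all genes called fell from 1573 to 503, 495 to 82, 963 to 231 and 3032 to 1175, in a fit of 1303 nuclei. They also fell from 787 to 116 (L4/5 IT against L6 IT), 649 to 196 (Pvalb against Sst) and 30 to 18 (the L2/3 IT labels). Between the L2/3 IT labels, members called rose from 0 to 1 without the filter, and all genes called from 30 to 90 without the filter, to 91 with the block and to 46 with DESeq2. The block raised Pvalb against Sst from 649 to 1013. Tcerg1l between Pvalb with Sst and Vip with Lamp5 reversed to 0.65 without the female library and was -2.52 without the male library. The Tmem163 level in L5 PT, 646 CPM, moved to 711 CPM without nuclei with microglial UMIs, 592 CPM after thinning and 633 CPM after subtraction of free RNA, and that of Gm42196, 160 CPM, to 149 CPM after thinning. The levels in the highest neuron label, with 1 library left out, ran from 339 to 368 CPM for Tcerg1l, 643 to 649 for Tmem163, 25.2 to 36.1 for Clec3a, 155 to 164 for Gm42196, 1056 to 1939 for Car10, 126 to 176 for Igfn1 and 54.4 to 78.8 for Gm4876. The causes were not tested. The number of nuclei limits Vip, Lamp5 and L5 IT, with 61, 27 and 35 nuclei.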
